A study of Mus musculus with 12 samples.

Results

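The genes described here are Grp, Plppr3, Slc5a7, Cdh22, B4galnt4, Atp1a4 and Dusp9, 7 of the 16181 genes that could be compared in mouse skin with and without Sox4. They were chosen by their low signal in skin lacking Sox4 against wild-type skin, Dusp9 by its difference in Exp 1, so their genotype differences below are a description and carry no test. Every array probe designed on a RefSeq transcript of these genes was read, which gave 10 probes, with a pair of probes for Plppr3, Slc5a7 and Atp1a4 and a single probe for each of the other 4 genes.

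Total RNA of skin collected 12 days after plucking was measured on 12 one-colour arrays, 1 array per mouse, in a study of the part that Sox4 plays in hair regeneration and in the activation of hair follicle stem cells. Sox4 was conditionally deleted in the skin of 6 mice (cKO) and intact in 6 wild-type mice (WT), and all 12 were males of mixed C57Bl6/129Sv background. Exp 1 held 3 cKO mice (numbers 2, 5 and 6) and 3 WT mice (numbers 1, 2 and 3) aged 68 to 72 weeks, and Exp 2 held 3 cKO mice (numbers 1, 3 and 4) and 3 WT mice (numbers 4, 5 and 6) aged 16 to 20 weeks. Experiment and age therefore cannot be told apart. The Cre driver of the knockout, the alleles that the WT mice carried and the position of the deleted part relative to the array probes are not stated in the labels. The basal keratinocyte markers Krt5, Krt14 and Trp63 were well above background on all 12 arrays, as the skin label requires.

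Sox4 is an HMG-box transcription factor of the SoxC group, whose members are known for driving the differentiation of young neurons and also act in the epithelium and mesenchyme of growing hair follicles. Most of the 7 genes are best known from nerve cells. Grp encodes gastrin-releasing peptide, a bombesin-like neuropeptide of itch circuits, and Slc5a7 encodes the high-affinity choline transporter that returns choline to cholinergic nerve endings. Plppr3 is a membrane protein related to phospholipid phosphatases and studied in growing axons, and Cdh22 is a cadherin of the brain and pituitary. B4galnt4 transfers N-acetylgalactosamine onto the sugar chains of glycoproteins. The neural name is looser for the remaining pair, because Atp1a4 is the catalytic Na,K-ATPase subunit of sperm and Dusp9 is a phosphatase that inactivates MAP kinases. The genes are therefore called by their names below.

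All levels are log2 signals after subtracting the 75th percentile of the same array on the log2 scale, so a level of 0 marks a probe as bright as that percentile and lower numbers mark dimmer probes. A difference is a difference of such levels, cKO minus WT unless stated, with the SE of a limma fit. The 75th percentile lay between 364 and 554 intensity units. The scanner software marks each spot as well above background or not, and 53.9% to 62.6% of the probes on an array had that mark, with cKO mouse 5 lowest in both. No probe was saturated in any mouse. In bulk skin, fewer cells that express a gene and less RNA per cell cannot be told apart.

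Sox4 itself was at -3.40 ± 0.69 in cKO skin and 2.13 ± 0.18 in WT skin (SD, n = 6 and 6). The highest cKO mouse was at -2.55 and the lowest WT mouse at 1.90, so the targeted gene separated the genotypes in all 12 mice.

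In WT skin, all 42 values of the 7 genes (7 genes in 6 mice) were well above background, against 17 of 42 in cKO skin. The 17 were 6 of 21 values in the cKO mice of Exp 1 and 11 of 21 in those of Exp 2. By mouse, cKO mouse 4 kept 5 of the 7 genes above background, cKO mice 1 and 2 kept 4, cKO mouse 3 kept 2, and cKO mice 5 and 6 kept 1. For all 7 genes every cKO mouse lay below every WT mouse. Such complete separation in that direction held for 1.2% of all genes tested, and since these differences chose the genes nothing is read from the count. The 63 genes lower in cKO skin at a limma adjusted p under 0.05, which made up 0.389% of those tested, likewise include all 7 by choice.

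**Figure D1:**
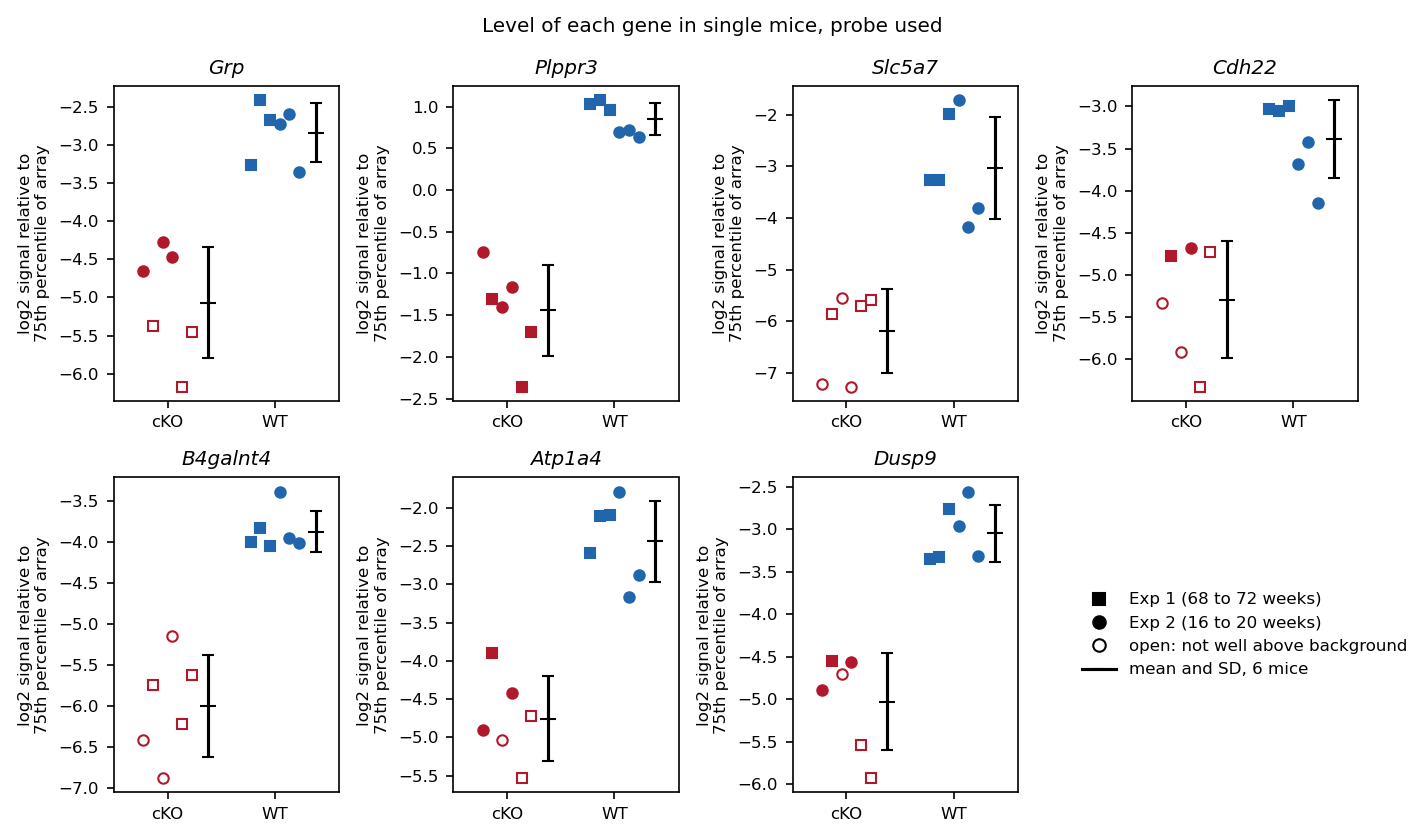
Level of each gene in every mouse (log2 scale, 0 at the array's 75th percentile, vertical axis, with its own range in each panel), cKO left of WT. Squares are Exp 1 and circles Exp 2, open symbols are values not well above background, and bars are the mean and SD of 6 mice. In each panel all 6 cKO mice sit below all 6 WT mice, and all open symbols are cKO mice.

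The fitted difference averaged over both experiments, dim values included, ranged from -3.16 (Slc5a7) to -1.91 (Cdh22), with a median of -2.23 over the 7 genes and of -0.04 over all 16181 genes. In Exp 1 the 7 differences ranged from -2.89 to -1.90 with a median of -2.45. In Exp 2 they ranged from -3.43 to -1.56 with a median of -1.78. All 7 were negative in both experiments. The sizes depend on how dim signals are treated, since the median was -0.77 after normexp background correction with quantile normalization and -0.82 in the authors' deposited table. With values below the array's lowest above-background signal raised to that signal, an alternative chosen after seeing the data, the median was -1.78.

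RefSeq promoter windows were available for 5 of the genes (250 bases before to 50 bases after the start, GRCm38.p6), and 3 are shown because the genes are low together in cKO skin and their promoters differ widely in base composition. Capitals mark the one match to the Sox core motifs ACAAAG or ACAATG, searched on both strands; a position can match only one of them. The Plppr3 window lies at chr10:79874585-79874884 on the minus strand, the Slc5a7 window at chr17:54298985-54299284 on the minus strand and the Cdh22 window at chr2:165234688-165234987 on the minus strand, each written 5′ to 3′ along its gene.
Plppr3: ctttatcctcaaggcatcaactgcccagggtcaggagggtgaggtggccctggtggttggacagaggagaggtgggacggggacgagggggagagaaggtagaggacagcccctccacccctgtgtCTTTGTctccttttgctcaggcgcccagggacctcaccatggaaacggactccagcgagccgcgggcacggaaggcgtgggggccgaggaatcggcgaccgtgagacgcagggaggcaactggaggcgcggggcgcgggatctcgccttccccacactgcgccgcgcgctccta
Slc5a7: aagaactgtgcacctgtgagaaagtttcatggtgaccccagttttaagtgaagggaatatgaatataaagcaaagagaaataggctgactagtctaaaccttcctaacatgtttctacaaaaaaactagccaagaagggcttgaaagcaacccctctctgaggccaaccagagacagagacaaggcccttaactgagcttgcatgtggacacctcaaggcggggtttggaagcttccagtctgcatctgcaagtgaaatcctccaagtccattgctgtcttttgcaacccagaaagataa
Cdh22: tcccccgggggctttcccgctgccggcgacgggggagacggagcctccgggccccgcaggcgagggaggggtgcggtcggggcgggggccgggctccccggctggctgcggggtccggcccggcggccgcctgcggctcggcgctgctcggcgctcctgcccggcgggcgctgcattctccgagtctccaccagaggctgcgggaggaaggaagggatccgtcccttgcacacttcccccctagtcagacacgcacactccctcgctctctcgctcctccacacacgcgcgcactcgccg

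Plppr3 held 1 match, ACAAAG on the opposite strand, whose first base in the printed window is 124 bases before the start. The windows of Slc5a7, Cdh22, B4galnt4 and Atp1a4 held none. Of 32851 mouse promoter windows of the same length, 18.7% held ACAAAG, 12.6% held ACAATG and 28.6% held either. GC content was 44.7% for Slc5a7, with 1 CpG, and 76.3% for Cdh22, with 38 CpGs. Plppr3 was at 66.7% with 23 CpGs, B4galnt4 at 68.0% with 37 and Atp1a4 at 55.7% with 6, against a median of 52.7% and 7 CpGs over all windows. The genes therefore range from a CpG-poor to a CpG-rich start.

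Of the signalling and transport genes, Grp was at -5.38, -6.17 and -5.46 in cKO mice 2, 5 and 6 of Exp 1 and at -4.65, -4.27 and -4.48 in cKO mice 1, 3 and 4 of Exp 2, against -3.26, -2.42 and -2.67 in WT mice 1, 2 and 3 and -2.73, -2.59 and -3.36 in WT mice 4, 5 and 6. The cKO mice of Exp 1 were lowest, those of Exp 2 lay between them and the WT mice, and the WT mice of both experiments overlapped. The mean was -5.07 ± 0.72 in cKO skin and -2.84 ± 0.38 in WT skin (SD, n = 6 and 6), a difference of -2.23 (SE 0.20). Grp was above background in 0 of 3 cKO mice of Exp 1, where it was at least 3.97-fold lower than in WT, and in 3 of 3 cKO mice of Exp 2, where it was 2.98-fold lower. An at-least fold sets the WT mean against the dimmest signal marked as above background on each cKO array, or the probe's own signal where higher. It is no strict limit, because a spot brighter than that can still lack the mark and other processing gave smaller differences. Over the alternatives the smallest were -0.94 for Grp in Exp 1, and -0.90 for Slc5a7 and -0.44 for B4galnt4 averaged over both experiments.

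Slc5a7 was not above background in any of the 6 cKO mice. It was at -5.85, -5.71 and -5.59 in cKO mice 2, 5 and 6 and -7.21, -5.55 and -7.27 in cKO mice 1, 3 and 4, against -3.26, -3.27 and -1.98 in WT mice 1, 2 and 3 and -1.72, -4.18 and -3.82 in WT mice 4, 5 and 6. WT mice 3 and 4 stood above the other WT mice, so the gene varied more within WT skin than the other 6. The mean was -6.20 ± 0.81 in cKO skin and -3.04 ± 0.99 in WT skin, a fitted difference of -3.16 (SE 0.46), while the measured fold is at least 3.61. None of its cKO values was above background, so they have no order. A second Slc5a7 probe was dimmer, was above background in 0 of 6 cKO mice and 2 of 6 WT mice, namely mice 3 and 4, and had every cKO mouse below every WT mouse, with cKO values between -7.39 and -6.21 and WT values between -5.64 and -3.13. Its fold was at least 1.17 lower in cKO skin.

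Plppr3 was the brightest probe among the 7 and the only one above background in all 6 cKO mice. Its processed signal was 201, 71.1 and 121 intensity units in cKO mice 2, 5 and 6 and 332, 205 and 202 in cKO mice 1, 3 and 4, against 1048, 838 and 1059 in WT mice 1, 2 and 3 and 862, 739 and 828 in WT mice 4, 5 and 6. On the log2 scale that was -1.30, -2.36, -1.71, -0.74, -1.40 and -1.16 in these cKO mice, against 1.03, 1.08, 0.96, 0.70, 0.72 and 0.64 in these WT mice. WT mice lay close together and cKO mice were spread more widely, with cKO mouse 5 lowest and cKO mouse 1 highest. The mean was -1.44 ± 0.55 in cKO skin and 0.85 ± 0.19 in WT skin, a difference of -2.30 (SE 0.17), or 4.92-fold lower.

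The second Plppr3 probe, designed on another transcript record, was far dimmer and did not separate the genotypes. Its mean was -4.18 ± 0.50 in cKO skin and -4.45 ± 1.03 in WT skin, and its difference of 0.27 had the opposite sign, with overlapping groups. It was above background in 5 of 6 cKO mice and 5 of 6 WT mice. With both Plppr3 probes averaged, the gene's difference was -1.01 in place of -2.30. All other values given for Plppr3 are those of the brighter probe.

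**Figure D2:**
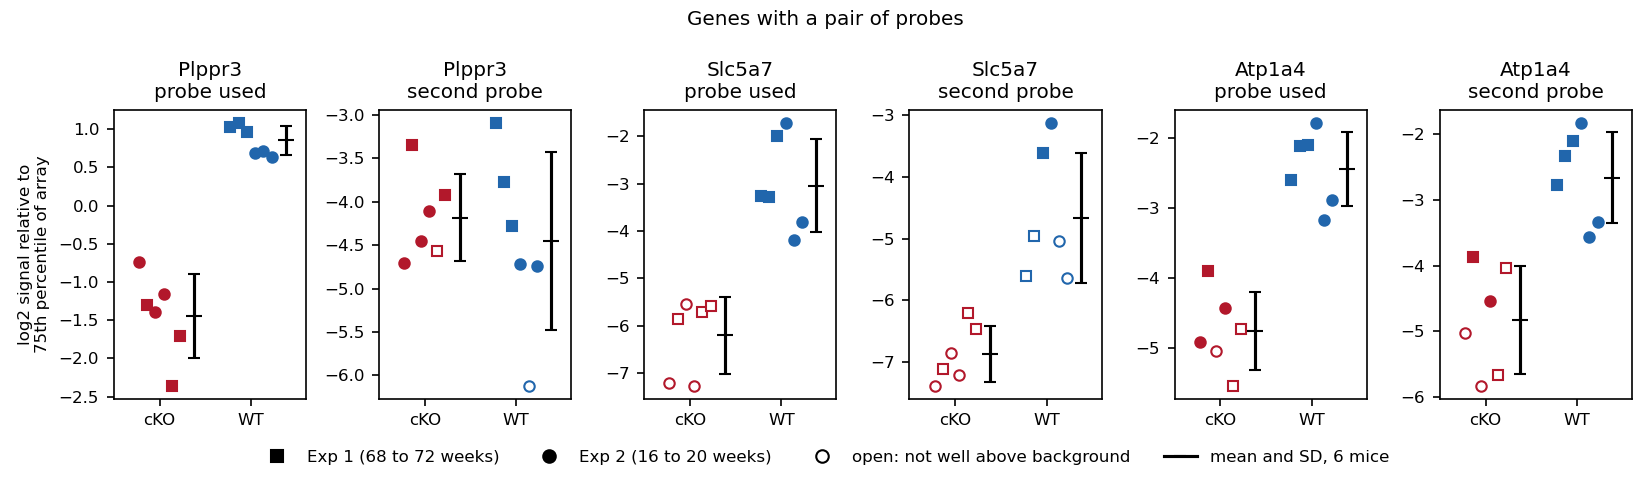
Levels of the 3 genes with a pair of probes in every mouse (log2 scale, 0 at the array's 75th percentile, vertical axis, own range in each panel), cKO left of WT, with Exp 1 as squares, Exp 2 as circles, open symbols for values not well above background and bars for the mean and SD of 6 mice. Both probes of Slc5a7 and of Atp1a4 were lower in every cKO mouse than in any WT mouse, whereas the second Plppr3 probe overlapped.

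Cdh22, a cell adhesion gene, was at -4.78, -6.33 and -4.73 in cKO mice 2, 5 and 6 and -5.34, -5.91 and -4.68 in cKO mice 1, 3 and 4, against -3.03, -3.05 and -3.00 in WT mice 1, 2 and 3 and -3.69, -3.43 and -4.14 in WT mice 4, 5 and 6. It was above background in cKO mice 2 and 4 only, and of the 7 genes it had the narrowest gap between the genotypes, 0.54 from the highest cKO mouse to the lowest WT mouse. The mean was -5.30 ± 0.69 in cKO skin and -3.39 ± 0.46 in WT skin, a difference of -1.91 (SE 0.30), and -1.32 with dim values raised to the background limit, since 4 of the 6 cKO values were not above background.

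B4galnt4 was at -5.74, -6.21 and -5.62 in cKO mice 2, 5 and 6 and -6.41, -6.88 and -5.14 in cKO mice 1, 3 and 4, against -4.0, -3.83 and -4.05 in WT mice 1, 2 and 3 and -3.38, -3.95 and -4.01 in WT mice 4, 5 and 6. None of the cKO values was above background, and the WT values were alike in 5 mice with WT mouse 4 above them. The mean was -6.00 ± 0.62 in cKO skin and -3.87 ± 0.25 in WT skin, a difference of -2.13 (SE 0.27) and a fold of at least 2.03.

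Atp1a4 was at -3.90, -5.53 and -4.73 in cKO mice 2, 5 and 6 and -4.91, -5.04 and -4.43 in cKO mice 1, 3 and 4, against -2.60, -2.11 and -2.10 in WT mice 1, 2 and 3 and -1.79, -3.16 and -2.88 in WT mice 4, 5 and 6. As for Slc5a7, WT mice 3 and 4 were the highest and WT mice 5 and 6 the lowest in WT skin. The mean was -4.76 ± 0.56 in cKO skin and -2.44 ± 0.53 in WT skin, a difference of -2.32 (SE 0.30), or 4.98-fold lower with 3 of 6 cKO values above background. That difference was -2.02 with dim values raised to the background limit and -0.90 after normexp with quantile normalization. The second Atp1a4 probe gave -4.83 ± 0.82 in cKO skin and -2.66 ± 0.69 in WT skin, a difference of -2.16, also with every cKO mouse below every WT mouse.

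Dusp9 was at -4.55, -5.54 and -5.93 in cKO mice 2, 5 and 6 and -4.89, -4.71 and -4.56 in cKO mice 1, 3 and 4, against -3.34, -3.33 and -2.76 in WT mice 1, 2 and 3 and -2.96, -2.56 and -3.31 in WT mice 4, 5 and 6. Mice 5 and 6 had the lowest values of the cKO mice but were not above background, and 3 of 6 cKO values were. The mean was -5.03 ± 0.57 in cKO skin and -3.04 ± 0.34 in WT skin, a difference of -1.99 (SE 0.23), or 3.96-fold lower with dim values included. That difference was -1.60 with dim values raised to the background limit and -0.58 after normexp with quantile normalization.

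The lowest cKO value was that of cKO mouse 5 for 4 of the 7 genes (Grp, Plppr3, Cdh22 and Atp1a4), the mouse whose array also had the lowest 75th percentile. Only its Plppr3 value was above background, so its other values have no order among the dim ones. Without cKO mouse 5 the median difference in Exp 1 was -2.10, against -2.45 with all mice. WT mouse 4 was the highest WT mouse for 3 genes (Slc5a7, B4galnt4 and Atp1a4) and WT mouse 6 the lowest for 3. The arrays came from 3 slides, of which slide 1 held 3 cKO and 3 WT mice, slide 2 held 2 cKO and 3 WT mice and slide 3 held cKO mouse 3 alone. Over both experiments the median difference of the 7 genes was -2.25 with slide as a block, which leaves cKO mouse 3 without weight, -2.10 within slide 1 and -2.17 within slide 2.

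**Figure D3:**
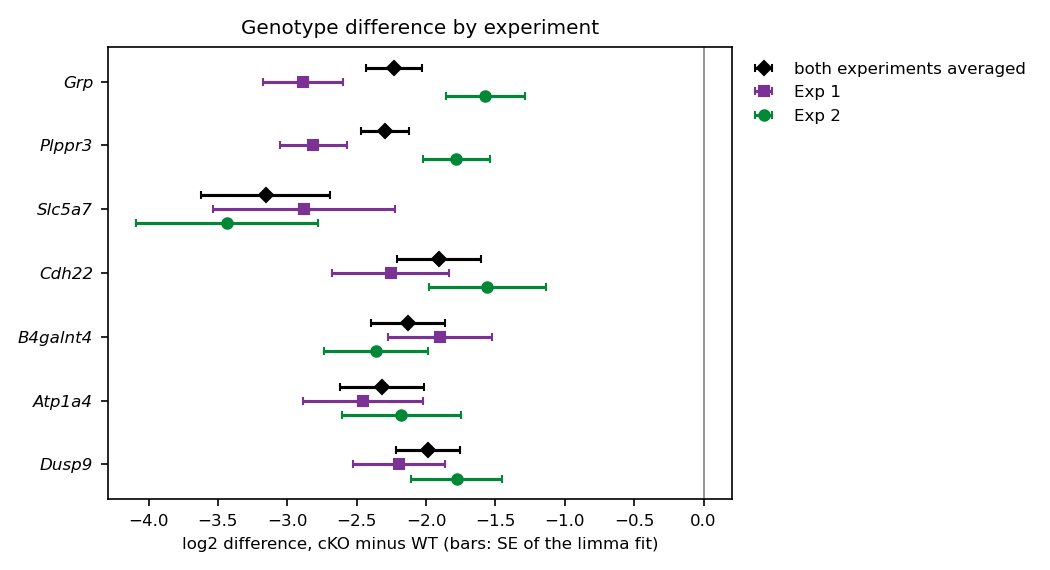
Log2 difference, cKO minus WT, of the 7 genes (horizontal axis; 0 marks no difference), averaged over both experiments (diamonds), in Exp 1 (squares) and in Exp 2 (circles), with bars for the SE of the limma fit. All 21 points lie below 0, between -3.43 and -1.56.

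Whether the genotype difference depended on the experiment was tested by the interaction, for Grp, Plppr3, Cdh22 and Atp1a4. Dusp9 was left out because its difference in Exp 1 chose it, and Slc5a7 and B4galnt4 because 0 of their 6 cKO values were above background. None of the 4 passed, with 1 of all 16181 genes called (0.00618%) and 511 at an unadjusted p under 0.05. Grp had a difference of -2.89 in Exp 1 and -1.57 in Exp 2, an interaction of -1.31 (SE 0.41, unadjusted p = 0.0085, limma adjusted p = 1.0). With dim values raised to the background limit the Grp differences were -1.99 in Exp 1 and -1.57 in Exp 2, an interaction of -0.41. Plppr3 had -2.81 in Exp 1 and -1.78 in Exp 2, an interaction of -1.03 (SE 0.34, unadjusted p = 0.0127, limma adjusted p = 1.0). Cdh22 and Atp1a4 had an unadjusted p above 0.05.

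The experiments were then compared within each genotype, contrasts other than the genotype difference that chose the genes. Like the interaction, they reuse the same arrays and estimate of spread, so their p-values are not independent of that choice. In WT skin none of the 6 genes other than Dusp9 passed, and none reached an unadjusted p of 0.05, while 0.84% of all genes were called. The difference, Exp 1 minus Exp 2, was highest for Cdh22 at 0.73 (SE 0.42, limma adjusted p = 0.39). Cdh22 averaged -3.02 in Exp 1 and -3.75 in Exp 2, and Plppr3 averaged 1.02 in Exp 1 and 0.68 in Exp 2, a difference of 0.34 (SE 0.24, limma adjusted p = 0.50).

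In cKO skin 9.98% of all genes were called between the experiments and of the 4 genes tested 1, Grp, was among them. Grp averaged -5.67 in Exp 1 and -4.47 in Exp 2 of the cKO mice, a difference of -1.20 (SE 0.29, limma adjusted p = 0.032), and because none of the Exp 1 values was above background the measured fold is at least 1.23 lower. With dim values raised to the background limit its difference was -0.30 and did not pass (limma adjusted p = 0.59). The call did not hold without cKO mouse 1, 3, 4 or 5, at adjusted p between 0.06 and 0.11, nor with slide as a block. Plppr3 averaged -1.79 in Exp 1 and -1.10 in Exp 2, a difference of -0.69 (SE 0.24) that did not pass (limma adjusted p = 0.095). Skeletal muscle transcripts also differed between the experiments. The mean of the 23 skeletal muscle genes ranged in cKO mice from -2.97 in mouse 2 of Exp 1 to 4.51 in mouse 1 of Exp 2, and in WT skin all 23 had a negative Exp 1 minus Exp 2 difference, with a median of -5.86. With that mean as a covariate limma called 0 genes between the experiments in cKO skin, with 2648 at an unadjusted p under 0.05, and Grp had a difference of -1.87 (limma adjusted p = 0.19). Hair matrix and melanocyte markers differed widely between cKO mice. The 14 hair matrix genes averaged between 1.81 and 3.94 in cKO mice and between 3.52 and 4.21 in WT mice, and the 12 melanocyte genes between -0.29 and 2.84 in cKO mice and between 2.37 and 2.98 in WT mice, with cKO mouse 5 lowest in both. Signal of the main Sox4 probe was also lower in the cKO mice of Exp 1 than in those of Exp 2, but above background in only 1 of 3 in Exp 1. A second Sox4 probe was above background in 0 of 6 cKO mice. It averaged -6.47 in Exp 1 and -6.87 in Exp 2, dim values that have no order. Since muscle transcripts differed between the experiments, the covariate fit cannot tell muscle from experiment or age. The part of remaining Sox4 signal, hair matrix cells, melanocytes and muscle in the difference of Grp between the experiments was not tested.

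Lists of markers of the cells that several of the 7 genes are known from were set beside them. Of 18 general neuron genes that passed the filter on dim probes, out of 26, none was called, 2 had an unadjusted p under 0.05, and the median difference was -0.01. Snap25, a synaptic vesicle fusion protein, was at 3.63 ± 0.21 in cKO skin and 3.17 ± 0.47 in WT skin (difference 0.46, limma adjusted p = 0.28), and Rbfox3, the neuronal nuclear antigen, had a difference of -0.86 (adjusted p = 0.41). Of 10 defining neuron markers, 5 were above background on all 12 arrays and 2, Nefl and Nefm, on none. Neuronal transcripts were thus measured in this skin in both genotypes.

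In the other nerve lists single genes were tested as well. Of 9 sensory and sympathetic neuron genes out of 16, none was called and 2 had an unadjusted p under 0.05, with a median of 0.11. Of 19 Schwann cell genes out of 20, none was called and 5 had an unadjusted p under 0.05, against 12.1% of all genes, with a median of 0.19. The Schwann cell markers Mbp, Sox10 and Prx were above background on all 12 arrays, and the largest Schwann list difference by p was that of Gfra3 (0.77, adjusted p = 0.091).

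Of 7 Merkel cell genes out of 11, 1 fell and none rose, with 3 at an unadjusted p under 0.05 and a median of -0.36. The gene that fell was Cck, which encodes the peptide cholecystokinin, at -2.15 ± 0.35 in cKO skin and -0.86 ± 0.25 in WT skin (SD, n = 6 and 6). Every cKO mouse was at or below -1.53 and every WT mouse at or above -1.28, a difference of -1.29 (SE 0.15, limma adjusted p = 0.0056). In the authors' deposited table its difference was -0.57 and did not pass (limma adjusted p = 0.51), but without that table's column for cKO mouse 1 it was -0.93 and passed (limma adjusted p = 0.023). It did not pass within slide 1 (-1.56, adjusted p = 0.085). Krt8 and Krt18, keratins of simple epithelium and Merkel cells, had differences of -1.61 and -1.24 that did not pass (adjusted p = 0.15 and 0.10), and Krt20 had -0.36 (adjusted p = 0.43). Rab3c, Isl1 and Piezo2, the remaining measured Merkel cell genes, had positive differences of 0.51, 0.28 and 0.04 (limma adjusted p = 0.43, 0.85 and 0.93). Isl1 was above background in 2 cKO and 2 WT mice. Atoh1, the Merkel cell master regulator, was not above background in any of the 12 mice.

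Over the 4 lists together, 52 genes were measured, of which 1 fell and 0 rose, 12 had an unadjusted p under 0.05 and the median difference was 0.06. Over all genes, 0.389% fell and 0.0309% rose, with 12.1% at an unadjusted p under 0.05 and a median of -0.04.

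The relatives of each gene were counted in the same way. Of 16 other acetylcholine and choline genes out of 25, 1 fell and none rose, with a median of 0.08. The gene that fell was Slc10a4, a synaptic vesicle protein of cholinergic and monoaminergic nerves, at -5.88, -5.92 and -5.15 in cKO mice 2, 5 and 6 and -4.0, -3.09 and -3.71 in cKO mice 1, 3 and 4, against -3.94, -3.49 and -3.63 in WT mice 1, 2 and 3 and -2.38, -3.13 and -3.08 in WT mice 4, 5 and 6. The cKO mice of Exp 1 were not above background and lay below all others, while those of Exp 2 overlapped the WT mice. The averaged difference was -1.35 (SE 0.21, limma adjusted p = 0.027), and without cKO mouse 1, 2 or 4 or WT mouse 2, 3, 4 or 5 the limma adjusted p lay between 0.052 and 0.089. The call held in 11 of 27 alternatives, and with dim values raised to the background limit the difference was -0.91.

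The enzyme and vesicle transporter that define cholinergic neurons did not follow Slc5a7. Chat, choline acetyltransferase, was at -2.68 ± 0.74 in cKO skin and -3.42 ± 0.48 in WT skin (difference 0.74, limma adjusted p = 0.41). Slc18a3, the vesicular acetylcholine transporter, had a difference of -0.25 (adjusted p = 0.74) with overlapping groups. None of 9 other sodium-solute transporters of the Slc5 family was called, with a median of 0.17 and Slc5a3, the inositol transporter, at -0.62 (adjusted p = 0.10).

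Of the bombesin peptides and receptors other than Grp only Nmb, neuromedin B, passed the filter, at 0.74 in cKO skin and 1.21 in WT skin (difference -0.47, limma adjusted p = 0.27). The Grp receptor Grpr was above background on 1 of 12 arrays. The 9 phospholipid phosphatases and related proteins measured besides Plppr3 had a median of 0.06 with none called and 0 at an unadjusted p under 0.05, Plppr2 and Plppr4 being at 0.16 and 0.27. The 13 classical and type II cadherins measured besides Cdh22 had a median of 0.10 with none called, and Cdh11 was at -0.36 (adjusted p = 0.38).

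Of 10 other N-acetylgalactosamine and galactose transferases and related enzymes none was called. Chst8, which sulphates the sugar that B4galnt4 transfers, came nearest with -2.93 in cKO skin and -1.98 in WT skin, a difference of -0.95 (SE 0.18, limma adjusted p = 0.057). The 14 other Na,K-ATPase and related subunits had a median of 0.04 with none called and 0 at an unadjusted p under 0.05. Of 9 sperm and spermatid genes out of 15, none was called and 8 had a positive difference, with a median of 0.27. Of 6 defining sperm and spermatid markers, 2, Prm2 and Tnp1, were above background on all 12 arrays. Odf1, a tail fibre protein, was above background on none.

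Of 9 other MAP kinase phosphatases none was called, 4 had an unadjusted p under 0.05 and 6 were negative, with a median of -0.23. Dusp4 was at -0.66 (limma adjusted p = 0.13) and Dusp6 at -0.44 (adjusted p = 0.33). The 11 measured ERK feedback genes, which rise and fall with the activity of the kinase that Dusp9 acts on, had a median of -0.05 with none called and 4 at an unadjusted p under 0.05, and Etv4 was at -0.82 (adjusted p = 0.093). Over the 8 lists of relatives, 81 genes were measured, of which 1 fell and 0 rose, 12 had an unadjusted p under 0.05 and the median was 0.05.

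**Figure D4:**
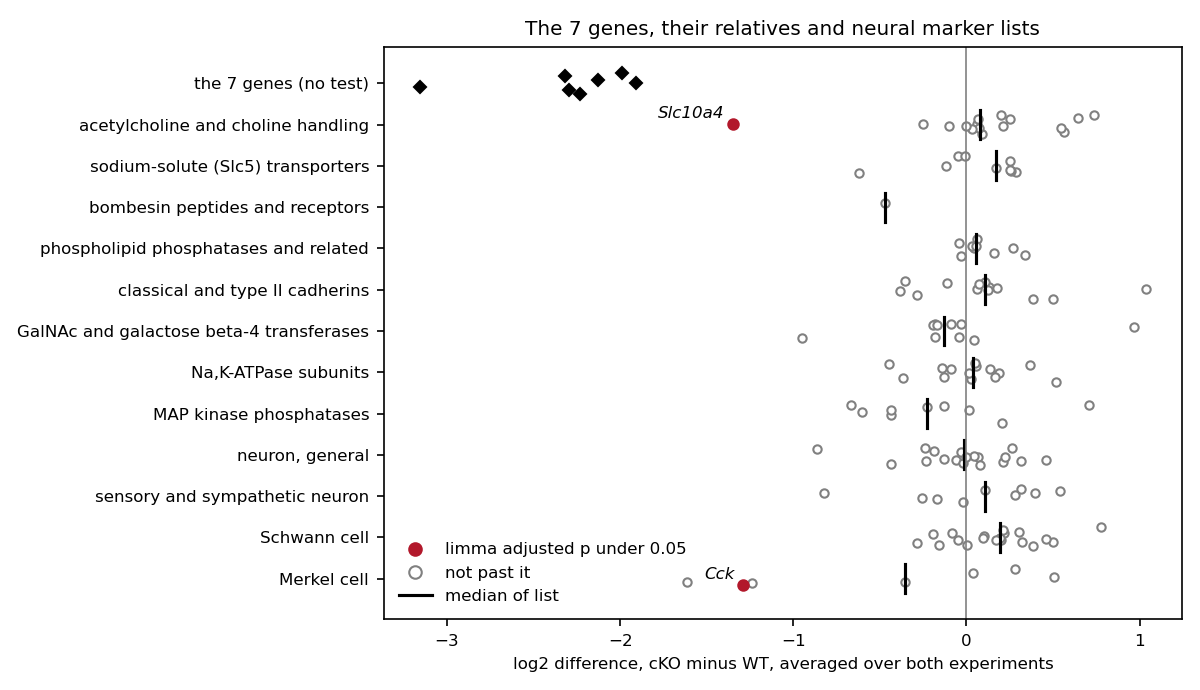
Log2 difference, cKO minus WT averaged over both experiments (horizontal axis), of the 7 genes (diamonds, no test) and of each measured gene in 8 lists of relatives and 4 lists of neural and Merkel cell markers. Vertical bars are list medians, filled circles are genes past a limma adjusted p of 0.05. The medians of the lists lie between -0.47 and 0.19, and Slc10a4 and Cck are the filled circles.

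Other cell types in the same skin were measured with the same lists. The 23 skeletal muscle genes all had positive differences with a median of 2.11, none called and 9 at an unadjusted p under 0.05, but their mean per mouse ranged from -2.97 to 4.51 in cKO skin and from -3.85 to 4.39 in WT skin. With that mean as a covariate the median difference of the 7 genes was -2.18, against -2.23 without it. All 22 mitosis genes, all 14 hair matrix genes and all 12 melanocyte genes had negative differences, as did 57.7% of all genes. Their medians were -0.36, -0.35 and -0.79 with none called, and 15, 1 and 0 of them had an unadjusted p under 0.05. The same 3 medians were -0.61, -0.50 and -1.46 in Exp 1, and -0.14, -0.13 and -0.10 in Exp 2. The 9 basal keratinocyte genes had a median of 0.16 with none called. The part of hair matrix, mitotic and melanocyte cells in the lower levels of the 7 genes was not tested.

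The genes whose pattern over the 12 arrays was most like that of the 7 were found by the root mean square difference between profiles, each centred on its own mean, over 16150 genes without missing values. The measure carries the genotype difference that chose the 7, so it is a description. For the mean profile of the 7, Mex3a, which encodes an RNA-binding protein, was nearest at 0.28, followed by Evl, a regulator of actin filaments, at 0.48, Zfp184 at 0.54, Tead2 at 0.58 and Pla2g4c at 0.59, against a median of 1.19 over all genes. Mex3a was also the nearest non-member of Plppr3 (0.35), Atp1a4 (0.47), B4galnt4 (0.55) and Slc5a7 (0.87). Zfp184 was nearest to Grp (0.45), Evl to Cdh22 (0.46) and Nme4 to Dusp9 (0.48).

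Mex3a was above background in every mouse. It was at -2.02, -2.23 and -2.09 in cKO mice 2, 5 and 6 and -1.86, -1.83 and -1.88 in cKO mice 1, 3 and 4, against 0.39, 0.84 and 1.01 in WT mice 1, 2 and 3 and 0.58, 0.55 and 0.49 in WT mice 4, 5 and 6. Its difference was -2.63 (SE 0.11), inside the range of the 7 genes, with a narrower spread in cKO skin than any of them. Among the 7, the closest pair of profiles was Grp and Plppr3 (0.38) and the least alike was Slc5a7 and Cdh22 (1.20).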

How the data were processed

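The 12 scanner files were written by Feature Extraction 11.5.1.1. Their processed signal, per the file headers, is an intensity with the background subtracted, with 0 or 1 flags for spots that are well above background, saturated or outliers. The authors also deposited a table of log2 values, for which the submitters' processing notes name limma but the labels state neither background correction nor normalization; it served as an alternative, because its column for cKO mouse 1 correlated with that mouse's array at 0.263, against 0.697 to 0.810 for the other columns.

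Outlier spots were dropped, log2 signals of a probe's spots were averaged, and the log2 of each array's 75th percentile was subtracted. Of 55681 probes 27509 had a gene symbol through RefSeq (GRCm38.p6), and 90 values were missing. A probe was kept if 3 or more of the 12 arrays marked it as well above background, and each gene was read by its brightest kept probe, which left 16181 of 20887 symbols. The means of the 4 groups were estimated with limma 3.58.1 under R 4.3.3 (empirical Bayes without trend), with 6 contrasts, two-sided tests and Benjamini-Hochberg adjustment over all genes at 0.05; the fit was tested on simulated data. A gene at background on every array of a group has an at-least fold, which is not a strict limit. Errors beside means are SD and beside differences SE. Precision is limited by the number of arrays, and nothing beyond the mouse numbers describes the animals as separate litters or days.

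Alternatives were median scaling, normexp with quantile normalization (on median signals, since the files hold no mean signal), the authors' table, other filters on dim probes, the mean of all probes of a gene, slide as a block and single slides (read from the array names), mouse number as a block, the muscle list's mean as a covariate, a trended robust fit, and each mouse left out; 3 more were added after seeing the data. The 7 genes, the 21 gene lists and the tests were chosen with earlier results of these data known. Genes named besides the 7 and Sox4 are the nearest by profile and, of each list, genes called and otherwise those with the smallest p. Defining cell type markers and all measured Merkel cell genes were added. Matches of mouse numbers across genotypes were checked as pairs and are reported under the dependence on processing.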

Additional observations from a re-analysis of the deposited data

Results flagged for a closer look

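B4galnt4 in WT mouse 4 was at -3.38, apart from the other 5 WT mice, of which the nearest was at -3.83. The gap made up 0.666 of the range of the WT mice, above Dixon's 95% critical value for 6 samples. It was 1 of 20 groups examined (10 probes of the 7 genes in each genotype), and chance alone marks about 1 in 20.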

How the results depend on the processing

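All 7 genes kept a negative genotype difference, averaged and in each experiment, under all 27 alternatives. They were chosen by that difference on these same arrays, so nothing is read from the sign. Their median (averaged -2.23, Exp 1 -2.45, Exp 2 -1.78) was -0.824, -0.897 and -0.70 in the authors' table, -0.778, -0.897 and -0.608 there without the column of cKO mouse 1, and -0.773, -0.886 and -0.62 after normexp; with dim values raised to the background limit it was -1.78 averaged and -1.93 in Exp 1; within slide 2 it was -2.91 in Exp 1 and -1.44 in Exp 2; without both mice numbered 5 it was -2.10 in Exp 1. Leaving out 1 mouse gave -2.31 to -2.10, -2.81 to -2.10 and -1.96 to -1.76. With the software's weaker mark of a positive and significant signal, 37 in place of 17 of 42 values counted as detected in cKO skin. The cause of these shifts was not tested.

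Of all genes, 68 were called for the averaged genotype contrast, 19 in the authors' table, 37 there without the cKO mouse 1 column, 45 without the filter on dim probes, 11 with the muscle covariate and 473 within slide 2 (1 residual degree of freedom), and 31 to 122 with a mouse left out. For Exp 1 (19 called) the counts were 8, 7, 11, 7 and 1315 in the same order, 1 within slide 1, 12 with dim values raised, 7 with median scaling and 6 to 56 with a mouse left out. For Exp 2 (10) they were 3, 4, 3 and 2, then 79 within slide 1, 6 with slide as a block, 6 with median scaling and 2 to 21. For the interaction (1) they were 0 in both versions of the table, with dim values raised, a trended fit, slide as a block or the filter at 6 arrays, 7 within slide 1, 392 within slide 2 and 0 to 2.

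Between experiments in cKO skin (1615 called) the counts were 62 and 1063 in the versions of the table, 958 without both mice numbered 5, 1031 with median scaling, 0 with the muscle covariate, 112 within slide 1, 2987 within slide 2, 146 with slide as a block and 157 to 2324 with a mouse left out. In WT skin (136) they were 4, 251, 665, 277, 0, 5, 702 and 21 in the same order, 44 without the filter, 273 after normexp and 6 to 597. Of the 4 genes tested, 1 (Grp) was called between experiments in cKO skin, and 0 in both versions of the table, without both mice numbered 5, with dim values raised, median scaling, normexp, the muscle covariate, slide as a block or within slide 1, 3 within slide 2 and 0 to 2 with a mouse left out. List genes called for the averaged contrast (2) were 0 in the authors' table, 1 without its cKO mouse 1 column, 1 with dim values raised, 1 with the muscle covariate, 29 within slide 2 and 1 to 7 with a mouse left out.

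Mouse numbers did not pair the samples, since deviations of same-numbered mice correlated between -0.26 and 0.0717. With mouse number as a replicate block 4 genes were called for the averaged contrast, 2 in Exp 1, 1 in Exp 2, 0 for the interaction, 0 and 0 between experiments, 0 list genes and 0 of the genes tested between experiments, and the Exp 1 minus Exp 2 difference of Plppr3 in WT skin, not called in any setting, was -0.0605 in place of 0.34. In Exp 2 the median over all genes was -0.206 with median scaling, against -0.0649. With 25 of 42 cKO values not above background, signal over background limits how well the size of the differences is known.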

Other observations

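Zfp184, the gene with the profile nearest to Grp, was at -3.37, -5.38 and -2.71 in cKO mice 2, 5 and 6 and -2.82, -3.06 and -2.83 in cKO mice 1, 3 and 4, against -1.46, -0.95 and -1.03 in WT mice 1, 2 and 3 and -1.32, -1.15 and -1.64 in WT mice 4, 5 and 6. Its level in cKO mouse 5 was not above background and stood apart from the other cKO mice.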
